A study of Mus musculus with 6 samples.

Results

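The genes that make, store, take up, sense and break down dopamine were examined in the mouse retina. The set was chosen by gene function, not by a measured change, although earlier results of these data were known. It holds Th, Ddc, Slc18a2, Slc6a3, Drd1, Drd2, Drd4 and Maoa, which are 8 of the 32285 genes of the count table. All 8 reached a total of at least 10 reads over the 6 retinas, as did 20021 genes of the whole table, and were tested.

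RNA was sequenced in bulk from 3 OIR-CIH and 3 OIR-Norm retinas of wild-type C57BL/6J mice at postnatal day (PN) 18. Pups of both groups had spent 5 days at 75% O2 with their mothers from PN8 to PN13, which causes capillary loss in the central retina followed by abnormal vessel growth (oxygen-induced retinopathy, OIR). OIR-CIH pups were then exposed to chronic intermittent hypoxia (CIH) for 10 h per day, as 266 cycles of 135 s in which O2 fell from 20.95% to 5%, and OIR-Norm pups received the same gas flow with no change in O2. The comparison asks how CIH alters transcription in a retina that has already been through OIR, and no retina without OIR was sequenced here.

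In the retina, dopamine is made by a sparse class of amacrine cells and is released in the light. It acts over long distances on photoreceptors, bipolar, horizontal, amacrine and ganglion cells, and it helps to switch the circuitry from night to day vision. Tyrosine hydroxylase makes L-DOPA from tyrosine, aromatic L-amino acid decarboxylase turns L-DOPA into dopamine, and receptors of the D1 class raise cyclic AMP in the receiving cell whereas those of the D2 class lower it.

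Between 26289905 and 38010151 reads were counted per retina, and the totals of the groups overlapped. Photoreceptor RNA was abundant in each library, where 15 photoreceptor genes summed to between 49852 and 66065 CPM (counts scaled to an equal library total), as a retina should show. Lens crystallin RNA was high in OIR-Norm replicate 2, where 6 lens genes summed to 476 CPM against 14.1 to 79.8 in the other 5 libraries. The 10 pigment epithelium and pigment cell genes summed to 454 to 677 CPM in OIR-CIH and 305 to 650 CPM in OIR-Norm. Of these 4 were higher and 6 lower in OIR-CIH. The groups were apart for Ttr and Lrat, at log2 fold changes of 0.75 and 0.80 (edgeR adjusted p = 0.103 and 0.173). Such a separation was found for 9.12% of all genes tested, and what this tissue contributed to the comparison was not tested. Every library held both Xist (298 to 1653 CPM) and Y-linked RNA (57.3 to 184 CPM), so each held RNA of male and female animals, in differing amounts. The methods name 3 eyes per group and describe no pooling, which does not account for this mixture. It is not known how many animals each library stands for, and n counts libraries. A gene was called when its adjusted p was under 0.05 and its log2 fold change was beyond 0.5 in either direction (edgeR quasi-likelihood test, Benjamini-Hochberg adjustment over the 20021 genes). This gave 63 genes, of which 20 were higher and 43 lower in OIR-CIH.

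None of the 8 dopamine genes was called (0 of 8, where 0.315% of all genes tested were). The closest to a difference were Ddc, the decarboxylase, which was 1.83-fold higher in OIR-CIH, and Drd1, a D1 class receptor, which was 1.21-fold higher. These 2 genes had an unadjusted p under 0.05 in the edgeR test, against 13.2% of all genes tested (6.2% higher and 7.01% lower). They were also the genes of the set whose 3 OIR-CIH values did not overlap the 3 OIR-Norm values, and in both the OIR-CIH values were higher, a separation in this direction found for 9.12% of all genes tested. Th, the gene of the rate-limiting enzyme, had nearly equal means in the groups. The median log2 fold change of the 8 genes was 0.10, with 6 above 0 and 2 below, beside a median of -0.0029 over all genes tested, of which 49.5% were above 0. In bulk retina, fewer cells of a type and less RNA per cell cannot be told apart.

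**Figure D1:**
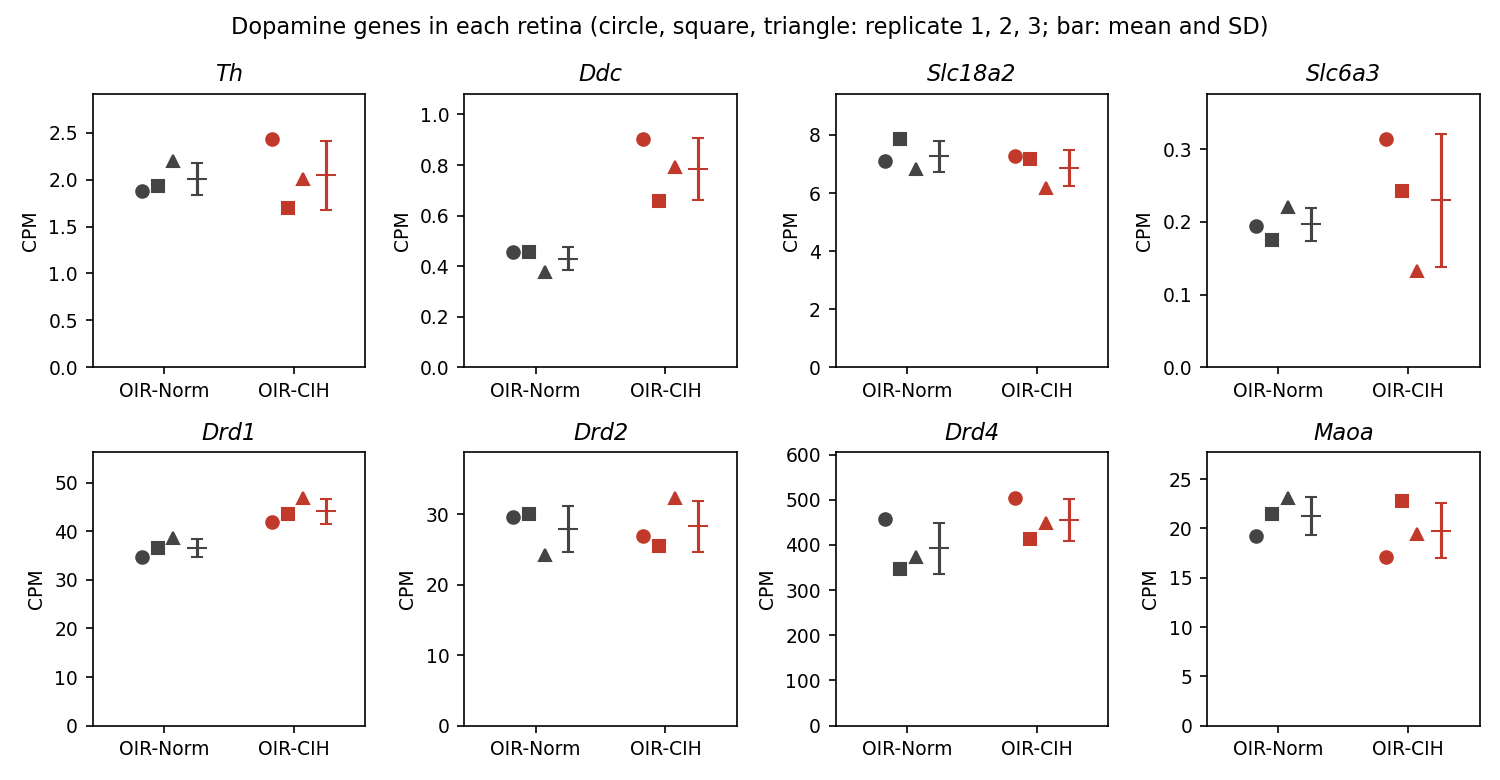
CPM of each of the 8 dopamine genes (y axis, from 0, with its own scale in each panel) in OIR-Norm (grey) and OIR-CIH (red) retinas, 1 point per retina, with the mean and SD over 3 retinas beside them. The OIR-CIH points lie above all OIR-Norm points for Ddc (0.659 to 0.903 against 0.377 to 0.456 CPM) and Drd1 (41.9 to 46.9 against 34.8 to 38.5 CPM), and the groups overlap in the other 6 panels.

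The genes differed far more from each other than between the groups. To compare genes, CPM were divided by the exon length of each gene in GENCODE M21. Drd4 was the highest on this scale, with 103 to 149 CPM per kb over the 6 retinas (median 127), a mean above that of 99.05% of the 20009 genes of known length. Drd1 followed at 9.59 to 12.9 CPM per kb (median 11.1) and Drd2 at 9.48 to 12.7 (median 11.1), and the ranges of these neighbours overlapped almost fully. The level per kb of Drd4 was 10.2 to 14.1 times that of Drd1 in the same retina. Maoa had 4.12 to 5.55 CPM per kb (median 4.91), below all receptor genes of the set in each retina. The genes of the dopamine-making cell were lower still, with Slc18a2 at 1.18 to 1.5 and Th at 0.719 to 1.03 CPM per kb. Drd5, the other D1 class receptor, reached 0.385 to 0.721 CPM per kb, a range that touched that of Th. Ddc at 0.0845 to 0.202 and the reuptake transporter Slc6a3 at 0.0383 to 0.0908 CPM per kb were the lowest, and their ranges overlapped slightly. These lengths come from all annotated exons, so that a gene with a long exon absent from the retinal transcript would appear too low.

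**Figure D2:**
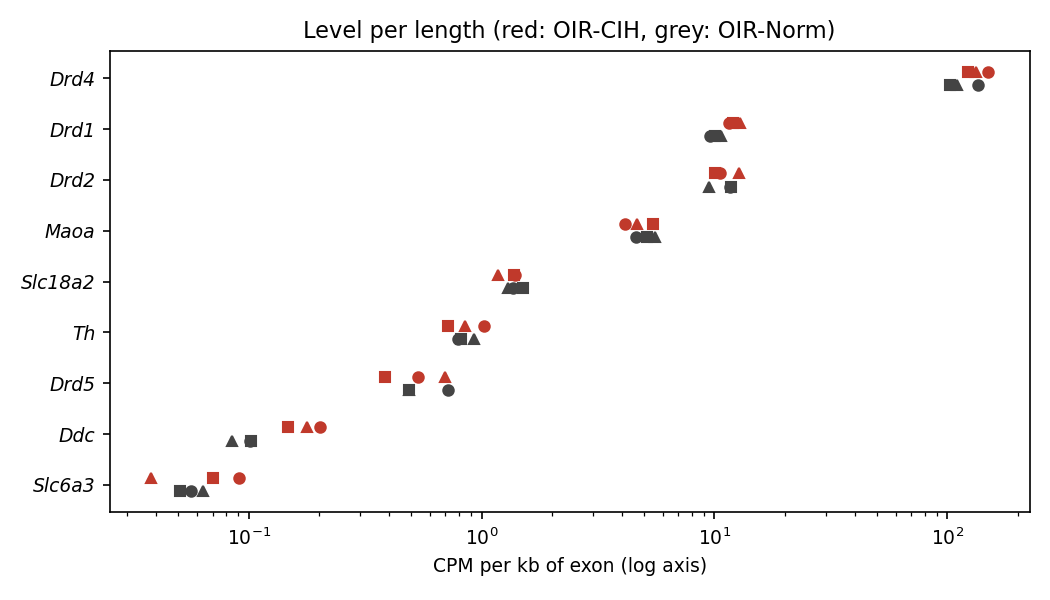
Level of each dopamine receptor, enzyme and transporter gene as CPM per kb of exon (x axis, logarithmic) in each of the 6 retinas, OIR-CIH in red and OIR-Norm in grey, with circles, squares and triangles for replicates 1, 2 and 3. Drd4 lies about 10 times above Drd1 and Drd2, and Ddc and Slc6a3 lie at the bottom, with Slc6a3 between 0.0383 and 0.0908 CPM per kb.

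Th (ENSMUSG00000000214, chr7:142892752-142931128 on the minus strand of GRCm38) encodes tyrosine hydroxylase. OIR-CIH replicates 1 to 3 had 2.43, 1.70 and 2.01 CPM of it, and OIR-Norm replicates 1 to 3 had 1.88, 1.93 and 2.20 CPM. The highest and the lowest of the 6 values were both OIR-CIH retinas, with the OIR-Norm values between them. The means were 2.05 ± 0.368 CPM (SD, n = 3) and 2.0 ± 0.171 CPM (SD, n = 3), a log2 fold change of 0.026 (standard error 0.21, edgeR adjusted p = 0.969, exact two-sided permutation p = 0.9). The 95% interval of the difference ran from a 0.746-fold to a 1.39-fold level, so a change within these bounds was not excluded with 49 to 76 reads per retina. Its sign was not stable, since leaving out OIR-CIH replicate 1, OIR-Norm replicate 1 or OIR-Norm replicate 2 turned the log2 fold change to -0.11, -0.023 and -0.0017. The 250 bases before the RefSeq start of Th (GRCm38.p6, chr7:142899996-142900245, minus strand) are shown because they hold the cyclic AMP response element through which this gene is known to be regulated. Capitals mark that element (TGACGTCA, 45 bases before the start) and an AP-1 motif (210 bases before the start).
Th promoter: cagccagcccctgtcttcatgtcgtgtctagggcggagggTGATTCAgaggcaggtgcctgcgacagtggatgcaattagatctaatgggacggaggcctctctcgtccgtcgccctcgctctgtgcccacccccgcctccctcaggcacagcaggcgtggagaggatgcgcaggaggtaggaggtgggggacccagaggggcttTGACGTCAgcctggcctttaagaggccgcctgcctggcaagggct

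Ddc (ENSMUSG00000020182, chr11:11814101-11898144, minus strand) encodes the decarboxylase that completes dopamine synthesis and also serves serotonin synthesis. OIR-CIH replicates 1 to 3 had 0.903, 0.659 and 0.794 CPM of it, and OIR-Norm replicates 1 to 3 had 0.454, 0.456 and 0.377 CPM. Each OIR-CIH retina was above each OIR-Norm retina. The means were 0.785 ± 0.122 CPM (SD, n = 3) and 0.429 ± 0.0452 CPM (SD, n = 3). The log2 fold change was 0.87 (standard error 0.33, 95% interval 0.15 to 1.59), with an unadjusted p of 0.0213 and an adjusted p of 0.308 by edgeR, and its exact two-sided permutation p was 0.1, the lowest value a permutation of 3 against 3 can give. The gene rested on few reads, 19 to 30 per OIR-CIH retina and 12 to 14 per OIR-Norm retina, and its log2 fold change was 0.46 when 0.5 CPM was added before taking logarithms. It remained above 0 and uncalled in all 16 alternatives tried, with adjusted p between 0.263 and 0.620. The gene that overlaps it on the other strand, 1700042O10Rik, had 1 read in 1 retina and 0 in the others.

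RefSeq gives Ddc a pair of start sites, and the window before the outer one (GRCm38.p6, chr11:11898145-11898394, minus strand) is shown because it holds a motif of the NR4A nuclear receptors, whose member Nr4a1 is described among the regulators of Th. Capitals mark that motif, read on the other strand (TGACCTTT for AAAGGTCA, 73 bases before the start), and an AP-1 motif (129 bases before the start). The window before the inner start held none of the motifs searched.
Ddc promoter: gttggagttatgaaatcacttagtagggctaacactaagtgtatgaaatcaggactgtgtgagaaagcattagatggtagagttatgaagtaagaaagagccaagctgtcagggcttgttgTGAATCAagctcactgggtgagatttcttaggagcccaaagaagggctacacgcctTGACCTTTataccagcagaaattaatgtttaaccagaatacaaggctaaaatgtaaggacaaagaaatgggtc

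The ratio of Ddc to Th, each per kb, expresses how the synthesis enzymes stood to each other within a retina. It was 0.197, 0.205 and 0.209 in OIR-CIH and 0.128, 0.125 and 0.0908 in OIR-Norm. The OIR-CIH ratios were close together and all above the OIR-Norm ratios, with means of 0.204 ± 0.00647 and 0.115 ± 0.0207 (SD, n = 3 each, exact two-sided permutation p = 0.1). This ratio rests on the Ddc values above and is not separate evidence of a difference. Summed amacrine marker RNA was also higher in OIR-CIH, although the retinas did not have the same order by it as by Ddc. The 20 amacrine genes summed to between 1835 and 2183 CPM in OIR-CIH and between 1716 and 1819 CPM in OIR-Norm, and 14 of 20 were higher in OIR-CIH (median log2 fold change 0.14, none at 0, and 1 called, Prdm13, at 0.58 with an edgeR adjusted p of 0.0470). The groups were apart for 3 amacrine genes that were higher and 2 that were lower, where 9.12% and 9.26% of all genes tested were. Per 1000 CPM of these genes Ddc was still higher in each OIR-CIH retina, at 0.353 to 0.492 against 0.208 to 0.265, and its mean was higher by 67.1%.

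Slc18a2 (ENSMUSG00000025094, chr19:59260896-59296012, plus strand) encodes the vesicular transporter that loads dopamine and other monoamines into vesicles. OIR-CIH replicates 1 to 3 had 7.26, 7.18 and 6.17 CPM of it, and OIR-Norm replicates 1 to 3 had 7.11, 7.86 and 6.82 CPM. The groups overlapped, with an OIR-CIH retina lowest and an OIR-Norm retina highest. On the log2 scale the difference was -0.08 (standard error 0.14, 95% interval -0.38 to 0.21, edgeR adjusted p = 0.837, exact two-sided permutation p = 0.6). It was below 0 in all 16 alternatives, and the antisense gene that overlaps its start, Gm29261, had 0 reads in each retina. Per kb, Slc18a2 was 1.35 to 1.91 times as high as Th in the same retina, and this ratio did not separate the groups (exact two-sided permutation p = 0.7).

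Slc6a3 (ENSMUSG00000021609, chr13:73536747-73578672, plus strand) encodes the dopamine transporter, which returns released dopamine to the cell. OIR-CIH replicates 1 to 3 had 8, 7 and 5 reads of it (0.314, 0.243 and 0.132 CPM), and OIR-Norm replicates 1 to 3 had 6, 5 and 7 reads (0.195, 0.175 and 0.220 CPM). An OIR-CIH retina was the highest and another the lowest. The log2 fold change of 0.17 had a 95% interval from -1.05 to 1.40 (edgeR adjusted p = 0.924), so that a difference of 2-fold in either direction was not excluded at this depth. Without OIR-CIH replicate 1 it was -0.11. The promoter of Slc6a3 (GRCm38.p6, chr13:73536497-73536746, plus strand) is shown because it was the only one of the set with the E-box CACGTG, the motif of the clock factors described at the end. Capitals mark it, 197 bases before the start.
Slc6a3 promoter: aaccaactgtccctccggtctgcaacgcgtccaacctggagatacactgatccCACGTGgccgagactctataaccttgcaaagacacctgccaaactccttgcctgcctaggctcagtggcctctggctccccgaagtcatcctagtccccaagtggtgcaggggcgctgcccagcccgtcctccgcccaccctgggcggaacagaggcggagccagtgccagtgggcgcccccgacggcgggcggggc

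Genes of noradrenaline-making cells, which also use Th, Ddc and Slc18a2, were measured as a check. Dbh, which turns dopamine into noradrenaline, was between 0.0974 and 0.208 CPM. The sympathetic regulator Hand2 had 0 reads in every retina, and Phox2a had at most 4. Other genes of the list were present, with the noradrenaline transporter Slc6a2 at 3.95 to 5.28 CPM and the neuropeptide gene Npy, also an amacrine marker, at 19.9 to 21.2 CPM in OIR-CIH and 16.0 to 19.7 CPM in OIR-Norm. Chga and Chgb, which neurons in general express, made up most of the list, whose sum was 498 to 559 CPM in OIR-CIH and 526 to 546 CPM in OIR-Norm.

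Drd1 (ENSMUSG00000021478, chr13:54051183-54055705, minus strand) encodes the D1 receptor, found on horizontal, bipolar, amacrine and ganglion cells. OIR-CIH replicates 1 to 3 had 41.9, 43.5 and 46.9 CPM of it, and OIR-Norm replicates 1 to 3 had 34.8, 36.5 and 38.5 CPM. All OIR-CIH retinas were above all OIR-Norm retinas. The means were 44.1 ± 2.55 CPM (SD, n = 3) and 36.6 ± 1.88 CPM (SD, n = 3), and 1041 to 1773 reads were counted per retina. Its log2 fold change was 0.27 (standard error 0.08, 95% interval 0.10 to 0.44). Its unadjusted p by edgeR was 0.00515, rank 467 of the 20021 genes, and its adjusted p was 0.221, with an exact two-sided permutation p of 0.1. The whole interval lay under the minimum change of 0.5 that a call needed. The value was between 0.22 and 0.31 in the 16 alternatives, with adjusted p from 0.134 to 0.506.

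Of the cell types that carry the D1 receptor, the amacrine sums above were higher in each OIR-CIH retina, and those of the others overlapped between the groups. Horizontal cell genes summed to 477 to 516 CPM in OIR-CIH and 436 to 481 CPM in OIR-Norm, with 5 of 6 higher in OIR-CIH. Bipolar genes summed to 1597 to 1645 and 1512 to 1762 CPM, with 6 of 10 higher. Ganglion cell genes summed to 854 to 1099 CPM in OIR-CIH and 950 to 1049 CPM in OIR-Norm, with 5 of 8 higher and a median log2 fold change of 0.016. Per 1000 CPM of amacrine genes, Drd1 was 22.8, 23.3 and 21.5 in OIR-CIH and 20.3, 20.1 and 21.2 in OIR-Norm. The groups remained apart on this scale, narrowly, with a mean higher by 9.88% in OIR-CIH (exact two-sided permutation p = 0.1). They also remained apart per horizontal cell RNA, with a mean higher by 10.7%, and overlapped per bipolar cell RNA (exact two-sided permutation p = 0.2). These divisions were chosen after the values had been seen, and what the cell types contributed to the difference was not tested further. Per amacrine RNA the groups overlapped for Th, Slc18a2 and Drd2. Their means in OIR-CIH differed by -6.27%, -13.02% and -8.26% (exact two-sided permutation p = 0.6, 0.3 and 0.4). Maoa per endothelial and pericyte RNA also overlapped, with a higher mean in OIR-CIH (exact two-sided permutation p = 0.7).

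Drd2 (ENSMUSG00000032259, chr9:49340627-49408177, plus strand) encodes the D2 receptor, which dopaminergic cells carry as an autoreceptor. In OIR-CIH, replicates 1 to 3 had 27.0, 25.5 and 32.4 CPM of it, and OIR-Norm replicates 1 to 3 had 29.6, 30.0 and 24.2 CPM. The groups overlapped, and replicate 3 was the highest of OIR-CIH and the lowest of OIR-Norm. On the log2 scale the difference was 0.020 (standard error 0.11, 95% interval -0.23 to 0.27, edgeR adjusted p = 0.957, exact two-sided permutation p = 1). Leaving out OIR-CIH replicate 3 or OIR-Norm replicate 3 turned it to -0.093 and -0.076.

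Drd4 (ENSMUSG00000025496, chr7:141292006-141296464, plus strand) encodes the D4 receptor, a D2 class receptor that photoreceptors use to lower cyclic AMP in the light. In OIR-CIH, replicates 1 to 3 had 505, 413 and 448 CPM of it, and OIR-Norm replicates 1 to 3 had 457, 347 and 372 CPM. Replicate 1 was the highest of each group, and OIR-Norm replicate 1 lay above 2 of the OIR-CIH retinas, so that the groups overlapped. The means were 455 ± 46.1 CPM (SD, n = 3) and 392.1 ± 57.3 CPM (SD, n = 3). The log2 fold change was 0.22 (standard error 0.11, 95% interval -0.03 to 0.46, edgeR adjusted p = 0.440, exact two-sided permutation p = 0.3). It was 0.13 without OIR-CIH replicate 1 or without OIR-Norm replicate 2, and 0.33 without OIR-Norm replicate 1, with no call in any of these. Deaf1, which ends within 2000 bases of Drd4 on the other strand, had 45.0 to 54.1 CPM and a log2 fold change of 0.06.

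Drd4 moved from retina to retina together with photoreceptor RNA. The 15 photoreceptor genes summed to 66065, 57114 and 60306 CPM in OIR-CIH and to 65029, 49852 and 53195 CPM in OIR-Norm, and 14 of 15 were higher in OIR-CIH (median log2 fold change 0.16, none called). The 6 retinas had the same order by Drd4 as by this sum, from OIR-Norm replicate 2 as the lowest to OIR-CIH replicate 1 as the highest. Per 1000 CPM of photoreceptor genes, Drd4 was 7.64, 7.24 and 7.43 in OIR-CIH and 7.02, 6.97 and 7.001 in OIR-Norm. On this scale the groups did not overlap and the spread between OIR-Norm retinas was small, with means of 7.43 ± 0.202 and 6.996 ± 0.0284 (SD, n = 3 each) and a difference of 6.27% (exact two-sided permutation p = 0.1). The scale was chosen after the values had been seen.

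**Figure D3:**
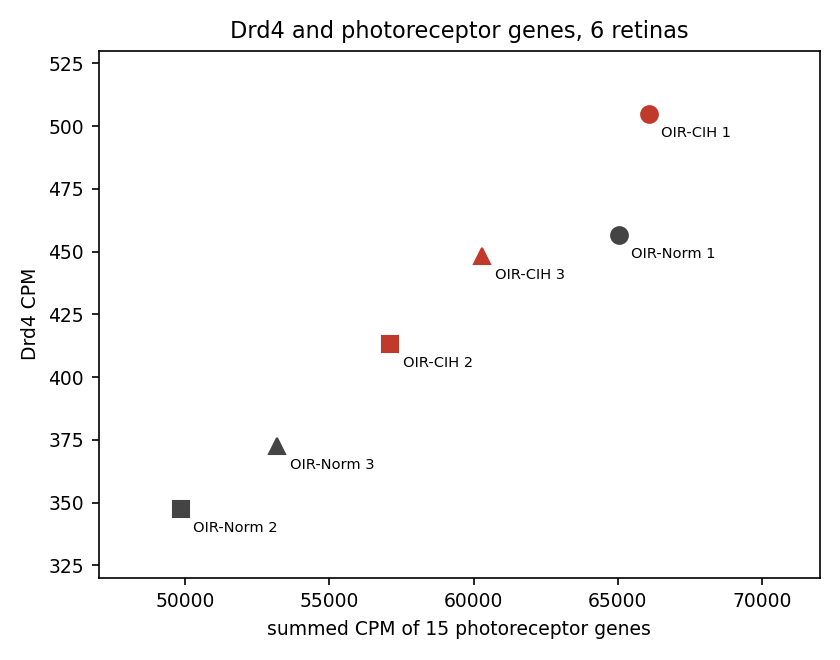
Drd4 level (CPM, y axis, which does not start at 0) against the summed CPM of 15 photoreceptor genes (x axis, which does not start at 0), 1 point per retina, OIR-CIH in red and OIR-Norm in grey. The retinas have the same order on both axes, from OIR-Norm replicate 2 (49852 and 347 CPM) to OIR-CIH replicate 1 (66065 and 505 CPM).

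Maoa (ENSMUSG00000025037, chrX:16619698-16687818, plus strand) encodes monoamine oxidase A, which breaks down dopamine, noradrenaline and serotonin. In OIR-CIH, replicates 1 to 3 had 17.1, 22.7 and 19.5 CPM of it, and OIR-Norm replicates 1 to 3 had 19.2, 21.4 and 23.1 CPM. The groups overlapped, with an OIR-CIH retina lowest and an OIR-Norm retina highest. On the log2 scale OIR-CIH differed by -0.10 (standard error 0.12, 95% interval -0.36 to 0.15, edgeR adjusted p = 0.753, exact two-sided permutation p = 0.5), and it was below 0 in all 16 alternatives.

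**Figure D4:**
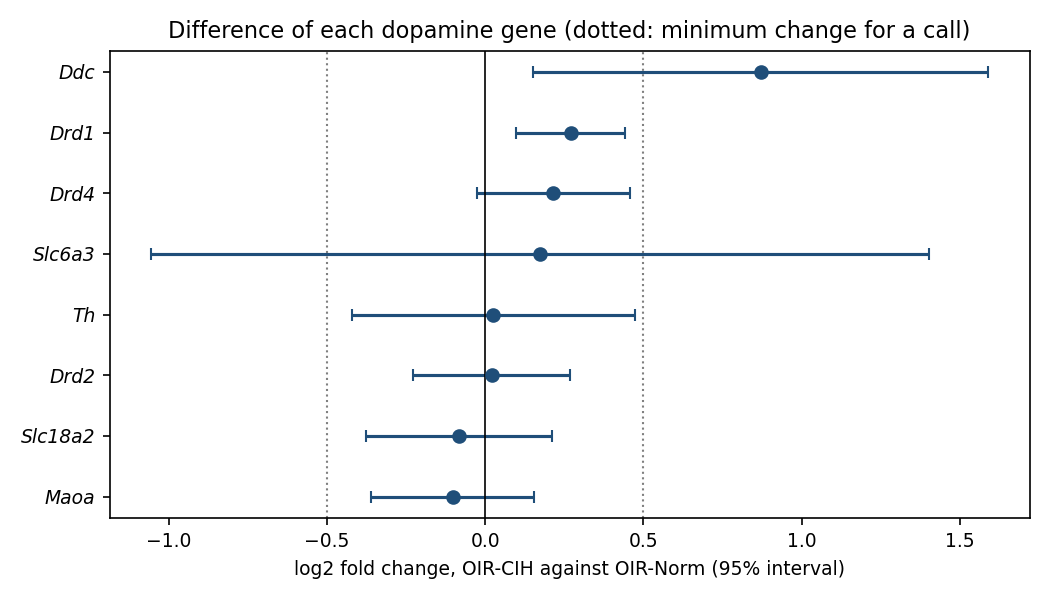
Log2 fold change of each dopamine gene in OIR-CIH against OIR-Norm (x axis, points) with its 95% interval from edgeR (bars), over 3 retinas per group, with dotted lines at the minimum change of 0.5 for a call. The intervals of Ddc (0.15 to 1.59) and Drd1 (0.10 to 0.44) lie above 0, and those of the other 6 genes include 0.

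Other genes of dopamine biology were listed by role, and 85 of the 91 found in the table had enough reads to be tested. Of these 46 were higher and 39 lower in OIR-CIH, and their median log2 fold change was 0.026. Ciart and Bhlhe40 rose and Nr4a1 fell, and the other 82 were not called, where 0.315% of all genes tested were called. An unadjusted p under 0.05 in the edgeR test was found for 19 of the 85, where 13.2% of all genes tested had one. Of these 19 genes, 10 were clock genes. The groups did not overlap for 14 genes that were higher and 8 that were lower, where 9.12% and 9.26% of all genes tested did so.

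Among the remaining receptors, Drd5 was at 1.69, 1.21 and 2.20 CPM in OIR-CIH and 2.27, 1.54 and 1.54 CPM in OIR-Norm, with a log2 fold change of -0.06 (edgeR adjusted p = 0.946). Drd3 had 1 read over all 6 retinas and was not tested.

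Tetrahydrobiopterin is the cofactor that tyrosine hydroxylase needs. None of its 8 genes was called, 5 were above 0 and 3 below, and their median log2 fold change was 0.09. Pcbd2, which helps to regenerate the cofactor, had 4.83, 4.72 and 4.92 CPM in OIR-CIH and 3.18, 3.40 and 3.36 CPM in OIR-Norm. Its groups were apart by 0.54 on the log2 scale (standard error 0.15, edgeR adjusted p = 0.185). Qdpr, the reductase of the same cycle, was also apart, at 34.0 to 36.5 CPM against 26.0 to 32.8 CPM and 0.24 on the log2 scale (edgeR adjusted p = 0.327). Pts and Pcbd1 had log2 fold changes of 0.17 and 0.21 with overlapping groups.

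Of the 14 genes for monoamine breakdown and for other monoamines, 5 were above 0, 9 below and none called, with a median of -0.11. The lowest p was that of Aldh1a1, an aldehyde dehydrogenase, which had a log2 fold change of -0.31 (edgeR adjusted p = 0.247). Tph2, which makes serotonin in neurons, had 1.73, 1.53 and 1.91 CPM in OIR-CIH and 2.21, 2.28 and 2.48 CPM in OIR-Norm. Its groups were apart, with a log2 fold change of -0.43 (edgeR adjusted p = 0.370). The noradrenaline transporter Slc6a2, which can also carry dopamine, had 3.95 to 4.79 CPM in OIR-CIH and 4.88 to 5.28 CPM in OIR-Norm, and its log2 fold change was -0.26 (edgeR adjusted p = 0.494). Per kb its mean was 0.674 CPM in OIR-CIH and 0.803 CPM in OIR-Norm, above the mean of Slc6a3 (0.0664 and 0.0569 CPM per kb). Slc6a4, the serotonin transporter, was at or below 0.211 CPM in every retina.

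The 20 genes that carry the receptor signal inside the cell divided evenly, with 10 above 0, 10 below, none called and a median of 0.0021. Prkar2b, a regulatory subunit of the cyclic AMP-dependent kinase, had 39.2, 41.7 and 42.9 CPM in OIR-CIH and 29.2, 31.6 and 37.5 CPM in OIR-Norm, which were apart (log2 fold change 0.33, edgeR adjusted p = 0.215). Adcy1, an adenylate cyclase, was apart in the other direction at -0.17, and Rgs9 and Arrb1 overlapped at -0.20 and -0.11. The adjusted p of these 3 genes by edgeR was 0.414, 0.404 and 0.637.

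Among the 18 factors known to act on the Th gene or on dopaminergic cells, 13 were tested, with 5 above 0, 8 below and a median of -0.06. The midbrain factors Pitx3, Lmx1a, En1, Foxa1 and Foxa2 had totals under 10 reads and were not tested. Nr4a1, an orphan nuclear receptor induced by activity, fell from 67.1 ± 10.0 CPM (SD, n = 3) in OIR-Norm to 44.4 ± 2.0 CPM (SD, n = 3) in OIR-CIH. The OIR-CIH retinas had 46.1, 42.2 and 44.9 CPM and the OIR-Norm retinas 74.8, 70.8 and 55.8 CPM, so that the groups did not overlap. Its log2 fold change was -0.60 (standard error 0.10, edgeR adjusted p = 0.0211). The call was lost on leaving out any of OIR-CIH replicates 1, 2 and 3 or OIR-Norm replicates 1 and 2, with adjusted p of 0.0979, 0.0903, 0.0793, 0.0621 and 0.0831. The immediate-early genes Fos, Junb and Egr1 had log2 fold changes of -0.46, -0.36 and -0.44 with overlapping groups, and OIR-Norm replicate 3 lay among the OIR-CIH values for Fos and Junb and below them for Egr1. Their adjusted p by edgeR was 0.232, 0.266 and 0.410.

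Genes for inputs to dopaminergic amacrine cells and for transmitters made in the same cells were mostly above 0, with 8 of 10 higher, a median of 0.17 and none called. Gjd2, the gap junction protein connexin 36, had 141, 152 and 153 CPM in OIR-CIH and 132, 130 and 139 CPM in OIR-Norm. Its groups were apart, with a log2 fold change of 0.16 (edgeR adjusted p = 0.371). Slc32a1 and Gad1, which serve GABA and are also among the amacrine markers, were at 0.23 and 0.18, and Penk, an enkephalin precursor, was at -0.26, all with overlapping groups.

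The clock list, chosen like the others with earlier results of these data known, held 2 called genes, where 0.315% of all genes tested were called. Of its 19 genes 13 were above 0 and 6 below, with a median of 0.09, and both called genes rose. The groups were apart for 8 genes that were higher and 3 that were lower, where 9.12% and 9.26% of all genes tested were. Ciart, a repressor within the clock, was at 26.5, 20.1 and 23.8 CPM in OIR-CIH and 12.3, 15.3 and 13.2 CPM in OIR-Norm. The groups did not overlap, and the log2 fold change was 0.79 (standard error 0.12, edgeR adjusted p = 0.0139). Bhlhe40, another repressor of clock transcription, had means of 79.4 ± 4.06 CPM (SD, n = 3) and 54.9 ± 8.13 CPM (SD, n = 3), and its log2 fold change was 0.53 (standard error 0.10, edgeR adjusted p = 0.0361). Usp2, a clock-controlled protease, had a similar change of 0.4977 with an adjusted p of 0.0147 by edgeR, just under the minimum change for a call. Bhlhe41 was at 0.34 with the groups apart and an edgeR adjusted p of 0.149. Ciart lost its call without OIR-CIH replicate 1, OIR-CIH replicate 3 or OIR-Norm replicate 1, with adjusted p of 0.115, 0.0680 and 0.0501. Bhlhe40 lost it without OIR-CIH replicates 1, 2 or 3 or OIR-Norm replicates 1 or 3, with adjusted p of 0.217, 0.0659, 0.128, 0.0808 and 0.0614. The hour at which the retinas were taken is not given in the sources used here, and its part in these values was not tested.

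**Figure D5:**
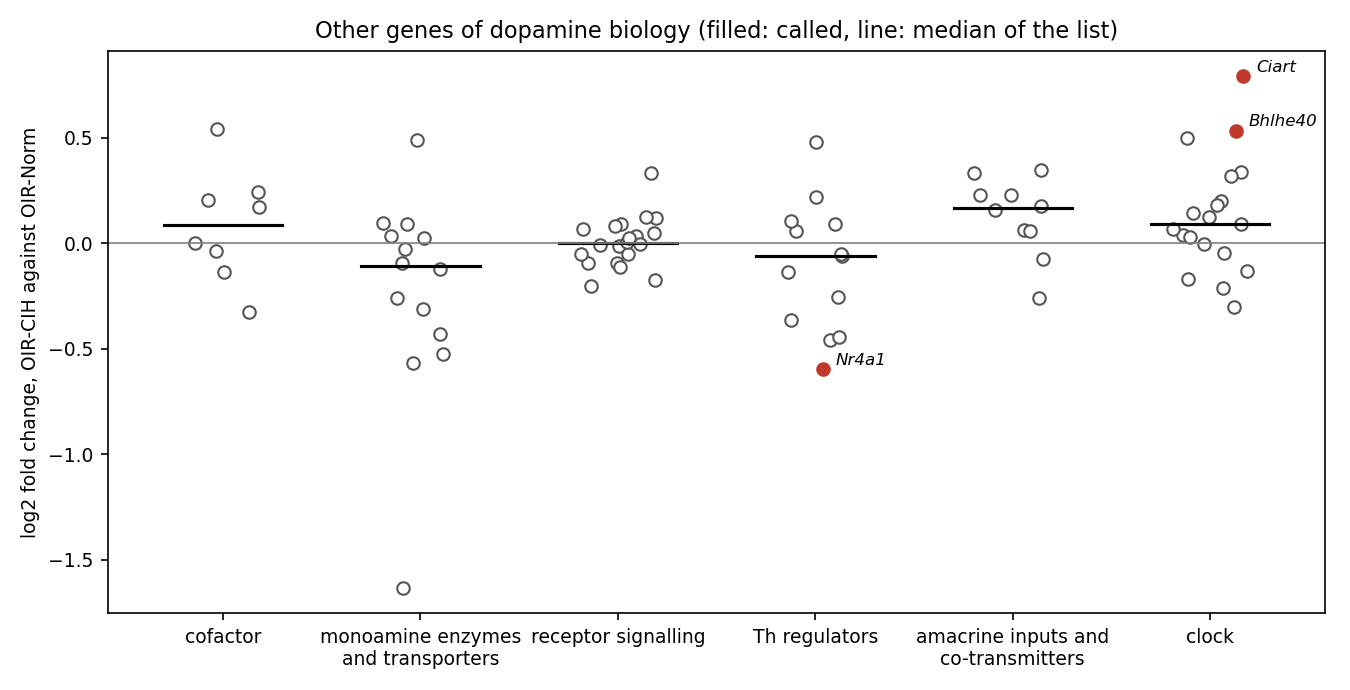
Log2 fold change in OIR-CIH against OIR-Norm (y axis) of the tested genes of 6 lists of dopamine biology, 1 circle per gene and a line at the median of each list; the list of other receptors, with Drd5 alone tested, is not drawn. Ciart (0.79) and Bhlhe40 (0.53) above and Nr4a1 (-0.60) below are filled as called, and the lowest open circle, at -1.63, is the serotonin transporter Slc6a4, which had almost no reads.

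The promoters of all 8 genes were found in RefSeq (10 windows of 250 bases) and searched on both strands for motifs of factors from these lists. The cyclic AMP response element TGACGTCA was present in Th alone of the set and in 1.55% of 32851 promoters. The NR4A motif AAAGGTCA was present in Ddc alone and in 1.34% of promoters, and the AP-1 motif TGANTCA in Th and Ddc and in 6.75%. The E-box CACGTG was present in Slc6a3 alone and in 6.02%. The motif TAATCC of the photoreceptor factor CRX was in none of the windows of the set, Drd4 included, and in 6.25% of promoters. A match shows only that these letters are in the window.

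The genes whose levels over the 6 retinas were most like those of Th were Ccdc125, Cpox, Tchp, Crabp2 and Rcn1, with Pearson r of log2(CPM + 0.5) between 0.985 and 0.997. Those most like Drd4 were Pgam1, Pla2g7, Slc25a17, Nap1l4 and AI847159, with r between 0.991 and 0.994. Among 14795 genes with a mean of at least 1 CPM, r was over 0.9 for 42 with Th and for 527 with Drd4. With 6 retinas, which share their library preparation, such values are a description only.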

How the data were processed

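Bulk RNA libraries of 6 mouse retinas, 3 OIR-CIH and 3 OIR-Norm grouped by the titles in their labels, were made from 250 ng RNA with a stranded poly(A) kit. The authors aligned reads with STAR 2.7.9a (submitters' processing notes) and took its gene counts, which were deposited as raw counts, not normalized. The notes name GRCm38 and the methods Ensembl 105, and the strand column used is not given in the sources used here. Symbols, positions and exon lengths come from GENCODE M21 (GRCm38) by gene ID (32235 of 32285 matched).

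All genes with 10 or more reads in total were tested with edgeR 4.0.16 (quasi-likelihood, TMM scaling) in R 4.3.3. Adjusted p are Benjamini-Hochberg values over 20021 genes, and a gene was called at an adjusted p under 0.05 when its log2 fold change was over 0.5 or under -0.5. CPM are TMM scaled. Exact two-sided permutation tests used log2(CPM + 0.5). The fit was tested on simulated data. Alternatives were DESeq2 1.42.0, limma 3.58.1 with and without voom, median-of-ratios scaling, other filters on low counts, a replicate block, a Y-linked covariate, no minimum fold, leaving out each library and, chosen after seeing the data, leaving out the libraries richest in lens RNA. Total counts set the precision. The edgeR p-values reflect read-count noise and the spread between libraries, with n counting libraries and not animals.

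The members and lists were chosen with earlier results of these data known. Named genes are the 8 members, at most 4 genes of lowest p per list with all called ones, and the 5 genes most like Th and Drd4. Dbh, Phox2a, Hand2, Npy, Prdm13, Ttr, Lrat, Chga, Chgb, Xist, Deaf1, 1700042O10Rik, Gm29261 and the untested factors were named as checks.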

Additional observations from a re-analysis of the deposited data

How the results depend on the processing

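The count of the 8 dopamine genes called was 0 in the 16 alternatives. Ddc, Drd1 and Drd4 stayed above 0 and Slc18a2 and Maoa below 0 in all of them, none called. With a covariate for Y-linked RNA the log2 fold changes of Th and Drd2 were -0.029 and -0.0066. Leaving out single libraries gave -0.11 to 0.14 for Th, -0.093 to 0.088 for Drd2 and -0.11 to 0.49 for Slc6a3, which had no value under edgeR's own filter on low counts. Over all genes, 63 were called, 135 with DESeq2 and 213 when genes with at least 1 count were tested, and each of these held all 63. Leaving out 1 library gave 35 to 104, the lowest when OIR-CIH replicate 1 and the highest when OIR-Norm replicate 3 was left out, and 42 were called without the libraries richest in lens RNA. Of the genes in the other lists 3 were called, the clock genes Ciart and Bhlhe40 and the regulator Nr4a1. When 1 library was left out, 0 to 5 genes of these lists were called (0 without OIR-CIH replicate 1, 1 without OIR-CIH replicate 3 or OIR-Norm replicate 1, 5 without OIR-Norm replicate 3). The cause of these changes was not tested. With a covariate for Y-linked RNA Bhlhe40 was at 0.44 with an edgeR adjusted p of 0.0796, and without the lens-rich libraries Nr4a1 was at -0.52 with 0.172.

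The labels do not say that replicate numbers pair the retinas. Across genes, retinas with the same number had correlations of 0.16, 0.14 and -0.24 between their deviations from the group means, and only replicate 1 was most like its own number. With the replicate block 84 genes were called in place of 63, 0 of the 8 dopamine genes and 3 genes of the other lists.

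Depth limits Slc6a3 (5 to 8 reads per retina) and Ddc (12 to 30) most, and a single gene cannot reach an exact permutation p under 0.1 with 3 retinas per group. Each library held RNA of both sexes from an unknown number of animals, and dopamine itself was not measured in these data.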
